A study of Mus musculus with 4 samples.

Results

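The 10 genes described here encode transcription factors that set the fate of blood cells: Gata1, Nfe2, Gfi1b, Zfpm1, Klf1 and Runx1, which were taken as megakaryocyte and erythroid factors, and Tal1, Gata2, Fli1 and Lyl1, which endothelium also makes. They were chosen by name, with earlier results of these data known. The arrays carried 12 probes for them among 39429 probes for 30195 genes. RNA came from spleen cells of Ackr4GFP/wt mice, in which 1 copy of the Ackr4 locus, which encodes an atypical chemokine receptor, carries green fluorescent protein. After digestion of the spleen, lysis of red cells and depletion of CD45-bearing cells with beads, living CD45-negative, CD31-positive single cells were sorted by the reporter into ACKR4-positive and ACKR4-negative populations. Each population was measured on 2 1-colour Agilent arrays, 1 from each of 2 independent sorts, and each sort pooled 2 to 3 mice whose age and sex are not given in the sources used here. Both groups carry the same reporter allele, so no wild-type cells were compared.

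Blood cells and endothelium arise from shared precursors in the embryo and keep parts of one regulatory network. In it, the bHLH proteins TAL1 and LYL1, the zinc finger proteins GATA1 and GATA2, the ETS protein FLI1 and RUNX1 bind DNA in complexes held together by the adaptors LMO2 and LDB1. GATA1 with its cofactor FOG1, encoded by Zfpm1, and the repressor GFI1B drive megakaryocyte and erythroid differentiation, NF-E2 drives platelet formation, and KLF1 drives red cell genes such as those of globin.

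Signal was well above background for 54.9% to 58.3% of probes on the 4 arrays. All 9 endothelial marker genes (Pecam1, Cdh5, Kdr, Tek, Tie1, Emcn, Eng, Esam and Ptprb) were well above background on all 4, though 3 of them (Kdr, Esam and Emcn) were called lower in ACKR4-positive cells. Each of these calls was lost without either ACKR4-negative array, and those of Kdr and Emcn also with quantile normalization, median centring or a stricter filter on dim probes. Tek stood at 1.81 ± 0.49 and was called higher with sort as a replicate block alone (adjusted p = 0.155, and 0.00611 with the block). Ptprc, which encodes the depleted surface protein CD45, was well above background on 1 array, that of ACKR4-positive cells of sort 2. The spiked-in control RNA had a median signal of 837 on the ACKR4-negative array of sort 1 and of 2749 to 3489 on the other 3. Levels below are log2 signals relative to the 75th percentile of the array, so that 0 is that percentile. They compare arrays for 1 probe and not 1 gene with another, and values of a group are given for sort 1 and then sort 2. Differences are ACKR4-positive minus ACKR4-negative, with the standard error of a limma fit over 17362 genes and Benjamini-Hochberg adjusted p-values with a threshold of 0.05 (n = 2 arrays per group).

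RefSeq promoter windows (build GRCm38.p6) were found for 8 of the 10 genes, 11 windows in all. The 250 bases upstream of the annotated start are shown for 2 factors whose signal fell (Gata1 and Gfi1b), for Klf1, whose signal was seen on 1 array, and for Tal1, whose signal did not pass the test. Capitals mark matches, on either strand, to short motifs of the factors' own families. The GATA motif was searched as AGATAA, and a form of it that begins with another letter was searched as TGATAA. For bHLH proteins such as TAL1 the motif was CAGATG. The ETS motif, which proteins of the FLI1 family recognise, was AGGAAG. For RUNX proteins the motif searched was TGTGGT, whereas for the Krüppel-like proteins it was CCACACC. NF-E2 shares its motif with the AP-1 proteins, and the letters TGAGTCA were searched for both.
Gata1, chrX:7967911-7968160, - strand: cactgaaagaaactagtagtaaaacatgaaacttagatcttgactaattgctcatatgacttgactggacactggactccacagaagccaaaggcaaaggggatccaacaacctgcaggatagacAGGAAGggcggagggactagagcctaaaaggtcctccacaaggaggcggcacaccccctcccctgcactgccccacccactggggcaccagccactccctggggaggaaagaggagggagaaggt
Gfi1b, chr2:28621983-28622232, - strand: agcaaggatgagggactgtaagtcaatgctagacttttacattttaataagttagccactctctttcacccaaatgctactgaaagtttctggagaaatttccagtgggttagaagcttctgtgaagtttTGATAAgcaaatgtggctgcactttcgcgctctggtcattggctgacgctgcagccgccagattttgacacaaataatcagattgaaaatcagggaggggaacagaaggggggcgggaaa
Klf1, chr8:84901732-84901981, + strand: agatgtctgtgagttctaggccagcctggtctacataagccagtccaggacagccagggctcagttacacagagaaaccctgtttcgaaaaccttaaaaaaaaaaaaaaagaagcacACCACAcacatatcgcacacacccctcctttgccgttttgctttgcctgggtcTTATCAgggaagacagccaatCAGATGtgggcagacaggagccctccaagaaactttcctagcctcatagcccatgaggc
Tal1, first window, chr4:115056176-115056425, + strand: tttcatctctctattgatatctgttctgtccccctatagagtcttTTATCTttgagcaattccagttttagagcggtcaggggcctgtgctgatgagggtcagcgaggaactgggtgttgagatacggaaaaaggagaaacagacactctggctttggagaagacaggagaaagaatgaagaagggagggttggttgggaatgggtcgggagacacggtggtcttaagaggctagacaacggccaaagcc
The Gfi1b window held 1 GATA match, beginning 120 bases before the start. The Klf1 window held 3 matches, a RUNX match at 133 bases, a GATA match at 80 bases and a bHLH match at 59 bases. The Gata1 window held 1 ETS match at 125 bases, and the first Tal1 window held 1 GATA match at 205 bases. A GATA match was present in 16.6% of 32841 RefSeq windows of the same length, a bHLH match in 14.4%, an ETS match in 29.5% and a RUNX match in 14% of them. Of the other 7 windows, the first of Runx1 held 1 ETS match and those of Zfpm1, Gata2 and Lyl1, the second of Tal1 and the second of Runx1 held 0 matches. KLF and NF-E2 motifs, present in 6.52% and 4.46% of all windows, were in 0 of the 11. These are matches of letters and not measured binding.

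The megakaryocyte and erythroid factors Gata1, Nfe2, Gfi1b and Runx1 fell in ACKR4-positive cells. Tal1, Gata2, Fli1, Lyl1 and Zfpm1 were well above background on all 4 arrays and were not called. Of these, Fli1 alone was called lower by limma with sort as a replicate block (adjusted p = 0.0280). Of the 10 factors, 9 could be tested. Without that block, calls in either direction numbered 4 of the 9, where 5.62% of all tested genes were called. The called factors, Gata1, Nfe2, Gfi1b and Runx1, passed the filter only through the ACKR4-negative arrays. All 4 were well above background there, though Runx1 was dim. They could not be tested when signal was required on every array. This route into the test favours a lower call, so their direction beside the share of all genes is a description only. All 4 were lower, where 3.71% of tested genes were, and 0 were called higher by limma (1.91% of all genes; 1 factor, Lyl1, was higher at an unadjusted p under 0.05). The median log2 fold change was -4.25 for the 6 megakaryocyte and erythroid factors, with the untested Klf1 included, -3.34 with genes at their bound and -1.63 with normexp background correction. It was 0.31 for the 4 factors shared with endothelium, beside 0.04 for all tested genes. The arrays of the 2 groups did not overlap for 8 of the 9 tested factors, a pattern seen in 44.9% of tested genes. In these bulk samples, fewer cells of a type and less RNA per cell cannot be told apart.

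Gata1, the master regulator of erythroid and megakaryocyte genes, had levels of 0.59 and 0.92 on the ACKR4-negative arrays against -5.88 and -7.17 on the ACKR4-positive ones. Both ACKR4-positive arrays were at background and far below both ACKR4-negative arrays. The log2 fold change was -7.28 ± 0.51 (adjusted p = 0.00974), a difference of at least 81.2-fold in which each ACKR4-positive level is replaced by that of the dimmest well-measured probe on its array where that is higher. Its probe lies on chromosome X at 7536392 to 7536451 (mm9).

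Gfi1b, a repressor required for red cells and platelets, stood at -0.95 and -1.51 on the ACKR4-negative arrays against -6.58 and -6.61 on the ACKR4-positive ones. Again both ACKR4-positive arrays were at background. The log2 fold change was -5.36 ± 0.32 (at least 21.7-fold, adjusted p = 0.00776), from a probe on chromosome 2 at 28464982 to 28465041 (mm9). With normexp background correction, which adds an offset to every spot, the values were -4.19 for Gata1 and -2.40 for Gfi1b, and both stayed called.

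Nfe2 encodes the larger subunit of NF-E2, the factor that megakaryocytes need to release platelets. Its levels were 1.61 and 2.51 on the ACKR4-negative arrays against -7.88 and -4.63 on the ACKR4-positive ones. The ACKR4-positive array of sort 1 was at background, while that of sort 2 was well above it, so that no lower bound is given. The log2 fold change was -8.31 ± 1.15 (adjusted p = 0.0305; chromosome 15 at 103078838 to 103078897, mm9), and normexp gave -5.45. Alternatives ranged from -9.94 to -5.45. Its call was lost without ACKR4-negative replicate 1 (-8.76, adjusted p = 0.0510) or replicate 2 (-7.86, adjusted p = 0.0616).

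Runx1, which is required for blood stem cells to emerge from endothelium and later for platelets, was dim everywhere. The brighter of its probes had levels of -4.78 and -3.97 on the ACKR4-negative arrays against -7.92 and -7.09 on the ACKR4-positive ones, where it was at background. The log2 fold change was -3.13 ± 0.47 (at least 2.46-fold, adjusted p = 0.0367), from chromosome 16 at 92605785 to 92605844 (mm9). A probe that starts 1372 bases away differed by -2.30 but was well above background on no array, and the file lists the same transcripts for both probes. The call was lost with normexp (-0.70, adjusted p = 0.502) and when ACKR4-negative replicate 1 or 2 or the sort 1 ACKR4-positive array was left out (adjusted p = 0.0610, 0.109 and 0.0902).

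Klf1, the erythroid Krüppel-like factor, was well above background on 1 array and was therefore not tested. Its levels were -2.31 and -6.45 on the ACKR4-negative arrays against -5.99 and -7.24 on the ACKR4-positive ones (chromosome 8 at 87428881 to 87428940, mm9). Only the ACKR4-negative array of sort 1, the one with the weak spike-in signal, carried signal. Sort 1 gave a difference of -3.68 and sort 2 one of -0.78, and leaving that array out gave -0.16.

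Zfpm1, which encodes the GATA cofactor FOG1, had clear signal in ACKR4-positive cells. Its levels were 1.59 and 1.15 on the ACKR4-negative arrays against 2.20 and 1.64 on the ACKR4-positive ones, so the ACKR4-positive arrays were the higher ones. The difference of 0.55 ± 0.35 was not called (adjusted p = 0.586, 95% interval -0.37 to 1.48; chromosome 8 at 124861092 to 124861151, mm9). A probe that shares 55 of its 60 bases gave 0.61.

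**Figure D1:**
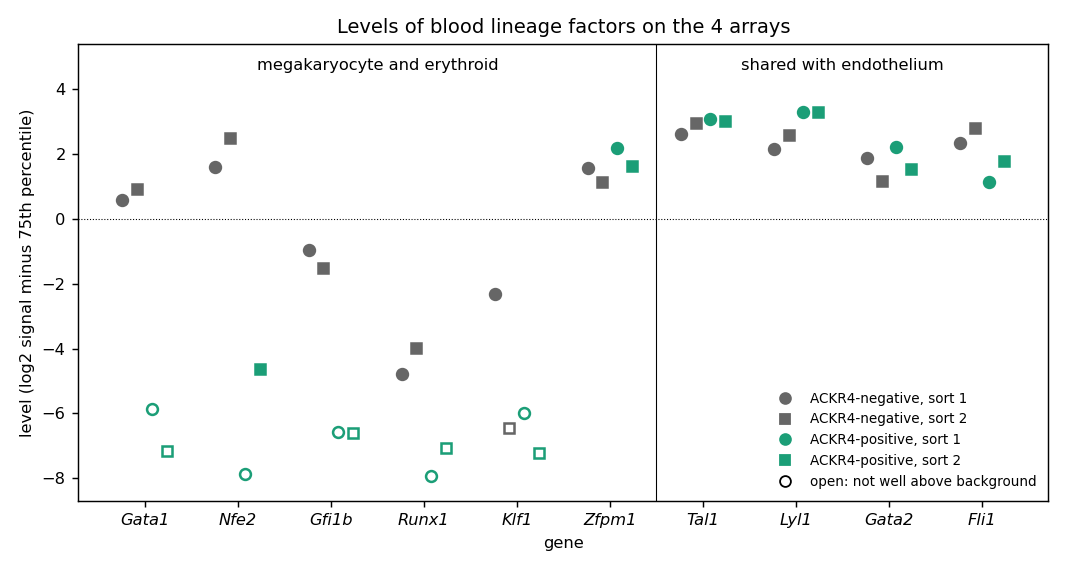
Levels (log2 signal minus the array's 75th percentile) of the 10 factors on the 4 arrays, with circles for sort 1, squares for sort 2 and open symbols where the probe was not well above background. ACKR4-positive arrays (green) sit at -4.63 or lower for Gata1, Nfe2, Gfi1b, Runx1 and Klf1 and at 1.13 or higher for the other 5.

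Among the factors shared with endothelium, Tal1, which is needed for blood cells and for vessel remodelling, had levels of 2.63 and 2.95 on the ACKR4-negative arrays against 3.10 and 3.02 on the ACKR4-positive ones. The 4 values lie close together, and the difference was 0.27 ± 0.28 (adjusted p = 0.780, 95% interval -0.48 to 1.01; chromosome 4 at 114744219 to 114744278, mm9). Gata2, the GATA factor of endothelium, blood stem cells and mast cells, had levels of 1.88 and 1.17 on the ACKR4-negative arrays against 2.22 and 1.54 on the ACKR4-positive ones. The groups overlapped, and sort 1 was the higher sort in both (0.36 ± 0.42, adjusted p = 0.803, 95% interval -0.75 to 1.46; chromosome 6 at 88156362 to 88156421, mm9).

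Lyl1, the nearest relative of Tal1, stood at 2.17 and 2.58 in ACKR4-negative cells and at 3.29 on both ACKR4-positive arrays. Both ACKR4-positive arrays were higher, and the difference of 0.92 ± 0.29 was not called (adjusted p = 0.226, 95% interval 0.14 to 1.69; chromosome 8 at 87228531 to 87228590, mm9). Fli1, an ETS factor of endothelium and megakaryocytes, had its higher levels in ACKR4-negative cells, with 2.33 and 2.82 on the ACKR4-negative arrays against 1.13 and 1.80 on the ACKR4-positive ones. Its log2 fold change of -1.11 ± 0.38 was not called (adjusted p = 0.254, 95% interval -2.11 to -0.11; chromosome 9 at 32229857 to 32229916, mm9). With sort as a replicate block, Fli1 was called lower (adjusted p = 0.0280), in a fit that called 15.3% of all genes, 8.55% lower and 6.75% higher, and that left 5 of the 9 tested factors lower and 0 higher. The intervals are for single genes and are not adjusted for the number of genes. Simulated data of the same size had few changed genes and arrays drawn independently, whereas limma called 976 genes here. In the simulation, 0 of 50 genes changed 4-fold were recovered at this threshold and 27 of 50 changed 16-fold. The real fit called some genes that differed by about 4-fold, such as Kit (-2.05, adjusted p = 0.0300), so the simulation does not give its power. The missing calls of these 4 factors and Zfpm1 do not show equal levels.

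**Figure D2:**
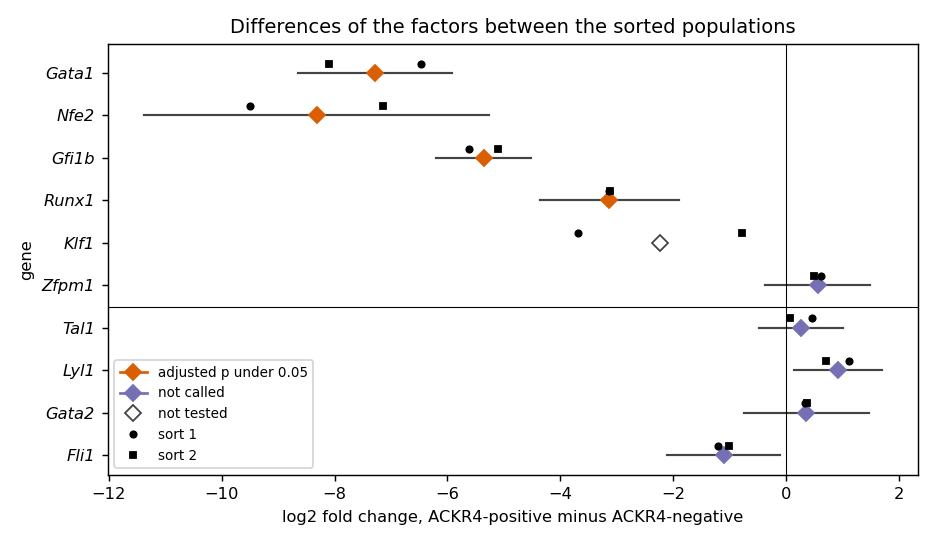
Log2 fold change of each factor (diamond) with its 95% interval and the difference within each sort (circle, sort 1; square, sort 2). Orange diamonds are called, and the open diamond of Klf1 has no test. Gata1, Nfe2, Gfi1b and Runx1 lie between -8.31 and -3.13, and Zfpm1 and the shared factors between -1.11 and 0.92.

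Partners of these factors were present in both populations. All 14 listed genes for partners and cofactors were well above background on all 4 arrays, and limma called 0 of them, with 1 higher and 1 lower at an unadjusted p under 0.05 and a median of 0.07. Lmo2, the adaptor between TAL1 and GATA proteins, had levels of 3.30 and 3.46 on the ACKR4-negative arrays against 2.42 and 2.90 on the ACKR4-positive ones (-0.72 ± 0.31, adjusted p = 0.384). The genes with the smallest p were Zfpm2, which encodes the related cofactor FOG2, at 2.59 ± 0.46 (adjusted p = 0.0557), and Tcf3, the bHLH partner of TAL1, at -1.72 ± 0.33 (adjusted p = 0.0666). Tcf4, another bHLH partner, stood at -1.28 ± 0.58. With the replicate block, Zfpm2 and the corepressor gene Cbfa2t3 were called higher and Tcf3 and Tcf4 lower (adjusted p = 0.00647 to 0.0404). Normexp also called Zfpm2 (1.65, adjusted p = 0.0367) and Tcf3 (-1.69, adjusted p = 0.0491).

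Family relatives of the 10 factors showed 0 calls among 23 tested of 33 listed, with a median of -0.02 and 1 gene, Klf12, higher at an unadjusted p under 0.05. The brightest relative of the GATA factors was Gata6, with 3.97 and 3.24 against 4.74 and 4.16, that of Klf1 was the shear-responsive Klf2, with 5.81 and 6.05 against 6.37 and 6.48, and that of Nfe2 was the stress response factor Nfe2l2, with 3.34 and 3.23 against 3.12 on both ACKR4-positive arrays. Nhlh1 (0.11 ± 0.30), Erg (-0.18 ± 0.67) and Runx3 (0.60 ± 0.28), the brightest tested relatives of Tal1 and Lyl1, of Fli1 and of Runx1, were not called. Gfi1, the relative of Gfi1b, Tal2, the relative of Tal1, and Runx2 were among 9 relatives that were well above background on no array. With the replicate block, Klf12 and Klf4 were called higher (1.49 and 1.31, adjusted p = 0.0352 and 0.0158).

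Of 16 factors of other blood lineages, 12 were tested, 2 were called lower and 0 higher by limma (3 higher at an unadjusted p under 0.05), with a median of 0.25. Ebf1 is a B lineage factor that mesenchymal cells also make. Its levels were -0.90 and -1.90 on the ACKR4-negative arrays against -7.96 and -6.61 on the ACKR4-positive ones. The log2 fold change was -5.89 ± 0.62 (adjusted p = 0.0168, at least 19.3-fold, -2.50 with normexp). Both ACKR4-positive arrays were at background, so Ebf1 passed the filter only through the ACKR4-negative ones, which favours a lower call. Tcf7, a T lineage factor, stood at -0.74 and -0.82 against -4.00 and -4.70 (-3.57 ± 0.35, adjusted p = 0.0149, -2.32 with normexp), a call lost without ACKR4-negative replicate 1 (adjusted p = 0.0543). Lymphocyte markers had 1 of 6 tested genes called lower (Lck, a call lost whichever array was left out), and the summed signals of the 7 listed were 2.57 and 3.62 on the ACKR4-negative arrays against 1.17 and 2.57 on the ACKR4-positive ones, in units of each array's 75th percentile, and their part in these falls was not tested. Irf8, Cebpa and Mitf stood at 1.16, 1.29 and 1.15 and were called higher with the replicate block (adjusted p = 0.0261, 0.0294 and 0.0238). Spi1, the myeloid factor PU.1, was well above background on no array.

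Most megakaryocyte and platelet genes, among them known targets of these factors, fell in ACKR4-positive cells. Of 16 listed, all tested, 13 were called lower and 0 higher by limma (0 higher also at an unadjusted p under 0.05). Of all genes, 3.71% were called lower. The median of the 16 was -7.09, or -6.38 with genes at their bound. On the ACKR4-positive arrays 8 and 11 of the 16 were well above background, so some passed the filter only through the ACKR4-negative arrays. For those genes this route favours a lower call. Without ACKR4-negative replicate 2, 7 were called. The 4 with the smallest p were the integrin gene Itga2b (-8.18 ± 0.33), the receptor gene Clec1b (-6.54 ± 0.33), the platelet tubulin gene Tubb1 (-7.26 ± 0.39) and Gp5 (-7.50 ± 0.41), at adjusted p = 0.00638 to 0.00686. Itga2b, Tubb1 and Gp5 were at background on both ACKR4-positive arrays, which makes them at least 143-fold, 54.5-fold and 87.5-fold lower, and normexp gave -4.90, -3.74 and -4.25. With the replicate block 15 of the 16 were called lower, Itgb3 (-1.71, adjusted p = 0.0125) and Gp1bb (-3.51, adjusted p = 0.0131) among them. Gp6, the platelet collagen receptor, had levels of 0.09 and 1.17 on the ACKR4-negative arrays against -7.23 and -6.25 on the ACKR4-positive ones (-7.37 ± 0.55, adjusted p = 0.0103, at least 78.9-fold, -4.16 with normexp). Rab27b, which serves platelet granule secretion, had -1.30 and -0.20 against -5.27 and -5.74 (-4.76 ± 0.47, adjusted p = 0.0154, at least 23.3-fold). Treml1, a receptor of platelet alpha granules, fell from 3.61 and 4.41 to -5.80 and -2.98. The summed signal of the 16 genes was 114 and 256 on the ACKR4-negative arrays against 4.69 and 6.92 on the ACKR4-positive ones. Ppbp and Pf4 were the brightest of the 16 on the ACKR4-negative arrays, and Itgb3 (1.75 and 2.02) on the ACKR4-positive ones. The sums thus rest largely on different genes in the 2 groups, and sort 2 was the higher in both. On the ACKR4-negative arrays, sort 2 was also the higher for Nfe2, Runx1 and Gata1, and sort 1 was the higher for Gfi1b. On the ACKR4-positive arrays Gata1, Gfi1b and Runx1 were at background, so their order of sorts there cannot be read. Nfe2 was well above background there in sort 2 alone. How much of the difference in Gata1, Nfe2, Gfi1b and Runx1 comes with a share of platelets or megakaryocytes in the sorted cells was not tested.

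**Figure D3:**
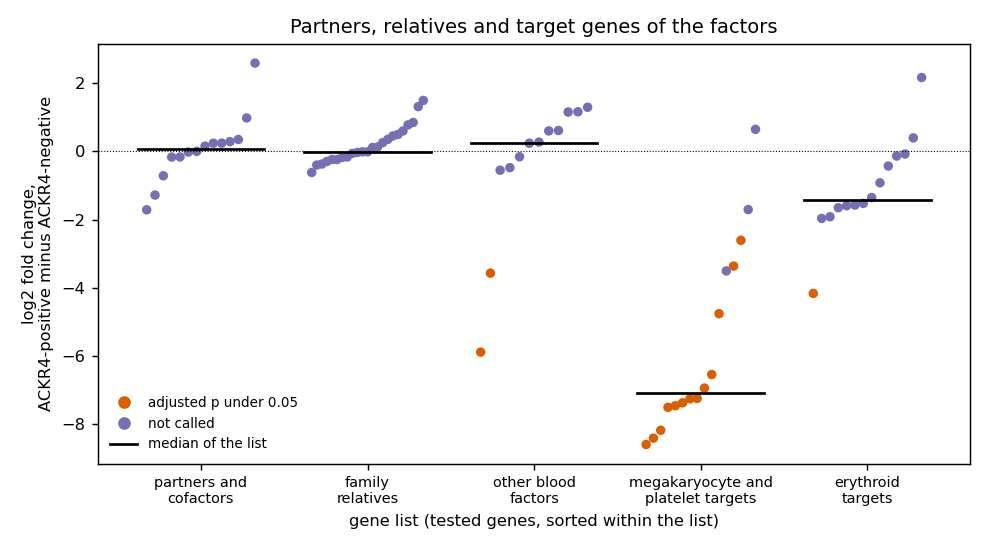
Log2 fold changes of the tested genes of 5 lists, 1 point per gene, orange where called, with the median of each list as a bar. The medians are 0.07, -0.02, 0.25, -7.09 and -1.44 from left to right.

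Most erythroid target genes were highest on the array on which Klf1 was measured. Of 23 listed, 22 were on the array and 14 could be tested, of which 1, Epor, the erythropoietin receptor gene, was called lower (-4.17 ± 0.27, adjusted p = 0.00871, -2.32 with normexp), and 0 were called higher by limma (1, Sptb, at an unadjusted p under 0.05). With the replicate block Sptb was called higher (2.16, adjusted p = 0.00626). The ACKR4-negative array of sort 1 was the highest of the 4 for 19 of the 22, and 6 were well above background on that array alone. The median difference of the 14 tested was -4.24 in sort 1 and 1.53 in sort 2. Ermap and Tspo2, with the next smallest p, stood at 0.39 and -0.92 (adjusted p = 0.614 and 0.674). Other probes of Ermap, which did not pass the filter, differed by -1.19 and -2.32. They were highest on the ACKR4-negative array of sort 1, at -2.67 and -2.64. Slc4a1, the red cell anion exchanger gene, had 1.02 and -3.61 on the ACKR4-negative arrays against -3.51 and -3.01 on the ACKR4-positive ones. Summed signals were 1186 and 87.7 on the ACKR4-negative arrays against 69.9 and 180.0 on the ACKR4-positive ones, and they include globin genes, whose near-identical copies the probes may not separate. The part of red cell RNA in the Klf1 signal was not tested. For Gata1 and Gfi1b, which both ACKR4-negative arrays carried, the differences without that array were -7.44 and -5.08 (adjusted p = 0.0239 for both).

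**Figure D4:**
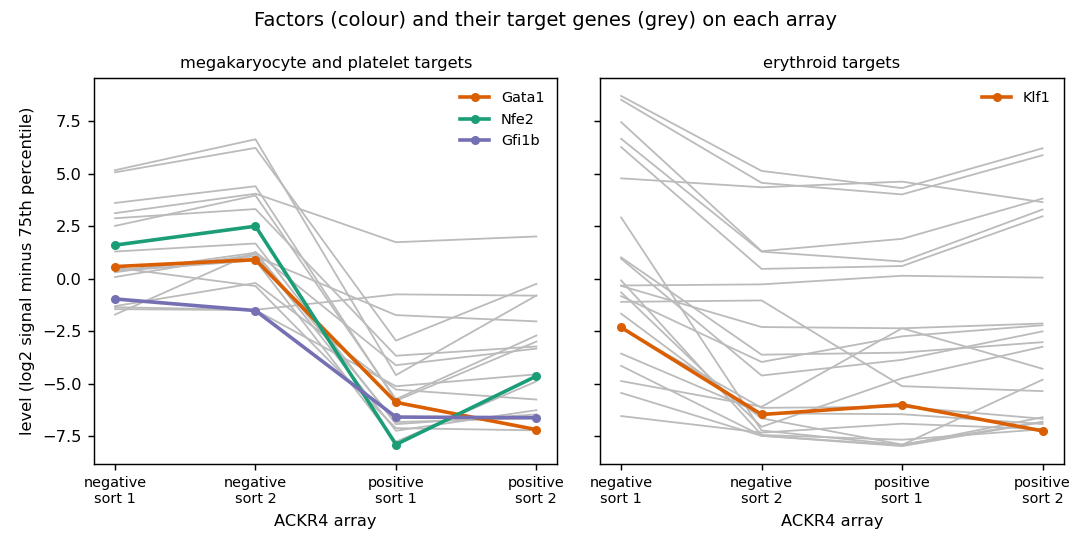
Levels (log2 signal minus the array's 75th percentile) on the 4 arrays of Gata1, Nfe2 and Gfi1b over the 16 megakaryocyte and platelet target genes (left) and of Klf1 over the 22 erythroid target genes (right), targets in grey; lines join arrays and show no order. On the left both ACKR4-negative arrays are high, and on the right the ACKR4-negative array of sort 1 alone is high for most genes.

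Likeness to Gata1 and Klf1 was ranked among the tested genes, with predicted and clone-type names left out and each gene centred on its mean. The 5 with levels most like those of Gata1 over the 4 arrays were Dusp26, Emp1, Col18a1, Myom2 and Spry1. Their root mean square distances were 0.22 to 0.36 on the log2 scale. Emp1 had 4.71 and 4.59 on the ACKR4-negative arrays against -1.43 and -2.86 on the ACKR4-positive ones. Those most like Klf1 were Madcam1, Fbp1, Tfrc, Slc4a1 and Maml3, at distances of 0.43 to 0.71. Tfrc, the transferrin receptor gene, had -2.65 and -5.14 against -5.95 and -7.20. Slc4a1 is in the erythroid list above. With 4 arrays, many genes have similar patterns, and these are descriptions only.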

How the data were processed

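The authors read the spots with Agilent Feature Extraction 10.7.3.1. Background had been subtracted and spatial trends removed from each intensity, per the file headers, low values were replaced by surrogates, and arrays were not scaled to each other. All 4 arrays were on 1 slide in 1 scan. From 6 to 20 ng of RNA was amplified and labelled per array, per the labels' protocols. The deposited table of intensities served as an alternative.

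The log2 signals of the 4 spots of a probe, without outlier spots, were averaged and set relative to the 75th percentile over probes. Testing needed over 50% of a probe's spots to be well above background on both arrays of a group, and the brightest tested probe stood for a gene. Names came from a RefSeq list (GRCm38.p6), with 27508 probes matched by accession. Groups were compared by limma 3.58.1's moderated 2-sided test (R 4.3.3), and figures came from matplotlib 3.10.9. No replicate block was used in the main fit, and a fit with sort as a block was an alternative. Titles give both arrays of a sort the same mouse number, so sorts pair the samples, and deviations from the group means correlated at 0.605 across genes within a sort. The procedure was tested on simulated data.

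The members and gene lists were chosen with earlier results of these data known. Named are all members, up to 4 genes per list with the smallest p (and the brightest of other cell types), for each factor the brightest tested relative of its family, and the 5 genes most like Gata1 and Klf1. Other genes complete small counts or, like Gp6, Rab27b, Treml1, Itgb3, Gp1bb, Lmo2, Slc4a1, Runx2 and Spi1, were chosen after their values were seen. Probe coordinates are those of the files (mm9), and the exon or UTR that holds a probe was not analysed here. A few genes of the lists are counted but not reported here by name.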

Additional observations from a re-analysis of the deposited data

How the results depend on the processing

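Alternatives changed the background correction, scaling, filters, probe choice, prior and samples. Gata1 and Gfi1b were called lower in all 13 alternatives in which they could be tested, Nfe2 in 11 of 13 and Runx1 in 9 of 13, and Tal1, Gata2, Lyl1 and Zfpm1 were not called in any. Of the 10 factors, Gata2 alone changed sign (-0.002 without ACKR4-negative replicate 2). The stricter filter on dim probes left 441 genes called, 0 of 5 tested factors (the 4 called lower were not tested), 4 of 8 megakaryocyte and platelet genes, 1 of the other blood factors (Tcf7) and 0 erythroid genes. With sort as a replicate block, a pairing of arrays, 2656 genes were called, 1172 higher and 1484 lower (55.9% lower against 66.0%), with 4 partners, 2 relatives, 5 other blood factors and 2 erythroid genes. It called Fli1 and changed no call of the other tested factors. Normexp gave a median of -1.63 for the megakaryocyte and erythroid factors and called 2 partners, the trended prior called 1, and the deposited values gave a median of -3.85.

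Leaving out 1 array gave 387 to 892 genes, 2 to 4 factors, 7 to 12 megakaryocyte and platelet genes, 1 to 2 erythroid genes and 1 to 2 other blood factors. The medians ranged from 0.12 to 0.50 for the shared factors and from -4.97 to -4.12 for the others. The low counts are those without ACKR4-negative replicate 1 (387 genes, 2 factors) or 2 (448 genes, 2 factors) and, for genes, without ACKR4-positive replicate 1 (511). Median centring moved the median of all genes from 0.04 to 0.11. Signal near background limits Runx1 and Klf1.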

Other observations

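Cells outside the vessel wall that also use GATA factors were looked for among the markers. Of 9 mast cell and basophil genes, 6 (Cpa3, Fcer1a, Ms4a2, Mcpt8, Cma1 and Mrgprb2) were well above background on no array. Kit, the stem cell factor receptor gene, was lower in ACKR4-positive cells, with 3.08 and 3.41 against 1.22 and 1.16 (-2.05 ± 0.28, adjusted p = 0.0300). The mast cell tryptase gene Tpsb2 was higher, with -2.52 and -2.73 against -0.05 and -0.75 (2.23 ± 0.35, adjusted p = 0.0423). Another Tpsb2 probe was well above background on no array and differed by 0.15. Hdc went the other way, with -1.06 and -0.76 against -2.55 and -1.81. Its difference of -1.27 ± 0.37 was not called (adjusted p = 0.184), but it was called lower with sort as a replicate block (adjusted p = 0.0232). Kit lost its call whichever array was left out (adjusted p = 0.0859 to 0.174). Tpsb2 lost it without ACKR4-negative replicate 1 or 2 or ACKR4-positive replicate 1 and with either change of the filter (adjusted p = 0.0535 to 0.177).

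Of 6 stem and progenitor genes, Slamf1, which encodes CD150, a surface protein of blood stem cells and megakaryocytes, had levels of -1.46 and -1.10 in ACKR4-negative cells and of -7.94 and -7.28 in ACKR4-positive cells (-6.33 ± 0.36, adjusted p = 0.00745, at least 21.0-fold, -2.59 with normexp). Slamf1 was at background on both ACKR4-positive arrays and passed the filter only through the ACKR4-negative ones, which favours a lower call. The other 4 tested, Flt3, Cd48, Hlf and Mycn, were not called, and Mpo was well above background on no array. Macrophage and granulocyte markers had 0 of 6 and 0 of 4 tested genes called by limma, with 1 macrophage gene (Marco) and 0 granulocyte genes at an unadjusted p under 0.05. With sort as a replicate block, Marco, C1qa and S100a9 were called lower (-1.43, -1.79 and -2.25, adjusted p = 0.0124, 0.0401 and 0.0248). Summed signals were 1.13 and 2.37 against 1.13 and 1.53 for 8 macrophage genes, and 2.60 and 4.77 against 1.95 and 3.39 for 7 granulocyte genes.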
